A study of Mus musculus with 6 samples.

Results

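Glycolysis and the response to low oxygen were followed in organoids of mammary epithelium, pieces of the ductal tree freed by digestion of the gland, through 37 genes of glucose handling and of the hypoxia inducible factor (HIF) pathway. The list was drawn up because loss of Wwox, an oxidoreductase with WW domains, has been tied to HIF1 and to glycolysis. Members were found as the probe sets whose annotation gives exactly 1 of these symbols. Where a gene had several, the set with the highest average level on the 6 arrays, called the brightest, stood for it. Of the 37 genes, 34 had a probe set that was tested, among 18193 genes so measured in all. With that single symbol Gapdh was found only on control probe sets, and these are described without a test. Gpi1 and Eno1 had no probe set with their single symbol.

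RNA came from 3 WT and 3 KO mice of 8 weeks, with 1 Affymetrix array per mouse. Their background is labelled as mixed 129/J and C57BL/6, and the paper of the study gives it as 129SV/C57Bl/6. Both groups carried Wwox flox/flox. The KO mice (arrays KO5, KO6 and KO7) also carried BK5-cre, in which the bovine keratin 5 promoter drives Cre in epithelial precursors, in the epidermis as well as in the gland. The WT mice (arrays WT1, WT2 and WT3) had no Cre, so that an effect of Cre itself and loss of Wwox cannot be told apart. Wwox was lower in KO, at 6.02 ± 0.19 (SD, n = 3) against 7.71 ± 0.071 (SD, n = 3), a log2 difference of -1.69 ± 0.13 (SE, limma adjusted p = 0.0228). Values are log2 expression as deposited, and a gene was called where the change was 2-fold or more and limma's unadjusted p was under 0.01. A log2 difference is KO minus WT. The number of arrays limits the precision.

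Cells take up glucose through transporters such as Slc2a1 and break it down to pyruvate, which is either turned into lactate or passed to mitochondria through pyruvate dehydrogenase. HIF is a pair of proteins, an oxygen-labile alpha subunit (Hif1a or Epas1) and the stable Arnt. With oxygen present the prolyl hydroxylases of the Egln family mark the alpha subunit, Vhl binds it and it is degraded. With little oxygen HIF accumulates and raises many glycolytic genes and others such as Vegfa and Car9. Egln3 is both one of the hydroxylases and a gene that HIF is known to induce.

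Egln3 was the 1 member called, and it fell in KO. On its brightest probe set (1418649_at) it was at 9.52, 9.88 and 9.48 in WT1, WT2 and WT3 and at 8.24, 8.04 and 7.95 in KO5, KO6 and KO7. Every KO array thus lay below every WT array, by more than the spread within either group. The log2 difference was -1.55 ± 0.15 (SE, limma adjusted p = 0.0342), or 2.93-fold, with a 95% interval of -1.90 to -1.20. By p it ranked 5 among the 11127 genes lower in KO, and by size 55. The other Egln3 probe set (1418648_at) was called as well. It was at 7.72, 7.87 and 7.41 in WT and at 6.72, 6.71 and 6.51 in KO, a log2 difference of -1.02 ± 0.15 (SE), again with no overlap. Arrays of whole organoids cannot tell fewer cells with the transcript from less transcript per cell. Across the array 0.517% of genes were called higher and 0.462% lower on their brightest probe set. Among the 34 members 0 were called higher and 1 lower. At an unadjusted limma p below 0.05, 4 members were higher and 4 lower, against 6.17% and 13% of all genes. Counting every probe set, 1.69% of them were called higher and 0.3% lower.

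The fall of Egln3 on its brightest probe set stayed within the limits of a call in each of the 14 alternative fits, at values between -1.63 and -1.30. The arrays also differed in a sign of RNA quality, the signal at the 3' end of a transcript over that at its 5' end. For the Gapdh control this was 1.72 ± 0.73 on the log2 scale in WT (SD, n = 3) against 0.47 ± 0.081 in KO (SD, n = 3), and for β-actin 1.55 ± 0.49 against 0.66 ± 0.044, and the groups overlapped for neither (p = 0.1 for both, two-sided exact permutation test, the lowest that 3 mice against 3 can give). The mean of both ran from 0.96 to 2.13 in WT and from 0.54 to 0.60 in KO. Because the groups do not overlap in it, a fit with it as a covariate cannot tell RNA quality from genotype. With this covariate Egln3 was at -1.30 (unadjusted p = 0.00211, adjusted p = 0.76 by limma). Against WT1 alone, the WT array nearest to the KO arrays in this measure, it was at -1.44. The adjusted p of Egln3 ranged from 0.0058 without WT1 to 0.76 with the covariate, and was above 0.05 also without WT2, without each 1 of the KO arrays, in a fit with a replicate block and against WT1 alone. The second probe set kept its direction but came to less than 2-fold in 6 of the 14 fits, with values as near to 0 as -0.91 without WT2.

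**Figure D1:**
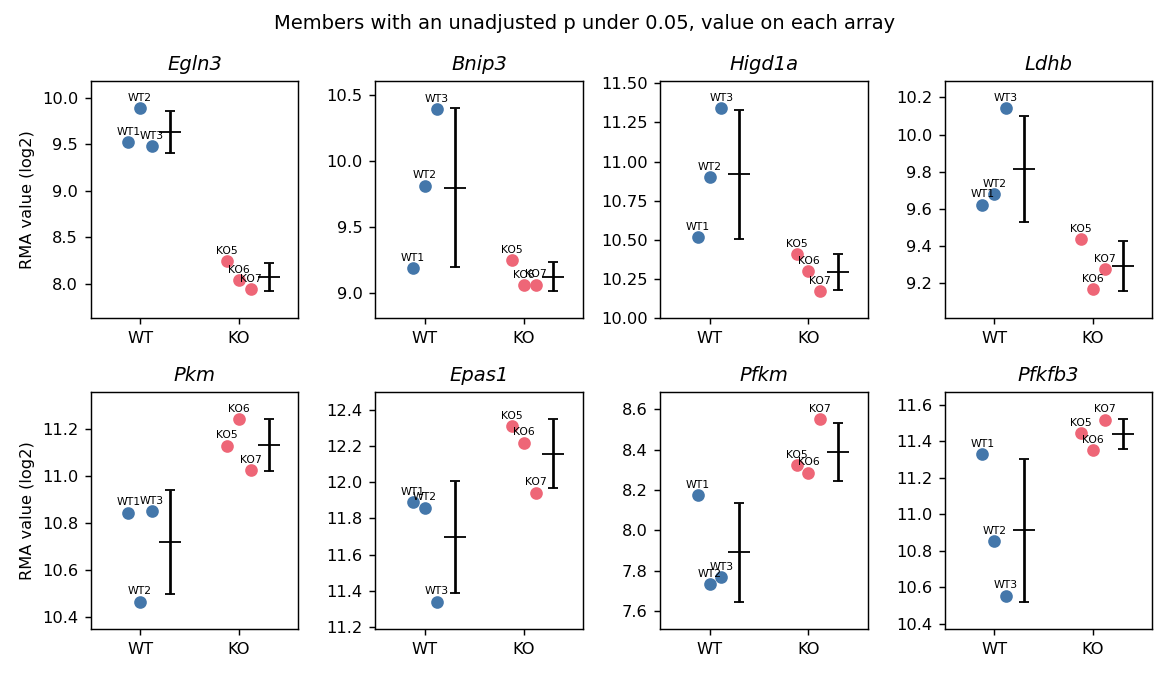
Deposited RMA values (log2) on each array for the 8 members with an unadjusted p under 0.05, brightest probe set; each point is an array, each bar a group mean with its SD (n = 3), and the scale differs between panels. Egln3 was at 9.63 in WT and 8.08 in KO, while WT1 lay among the KO arrays for Bnip3.

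The stretches upstream of Egln3 and of the 2 hypoxia-induced members with the next largest differences, Bnip3 and Higd1a, are shown because HIF binds the letters ACGTG or GCGTG. Each runs 5' to 3' over the 250 bases before the annotated start, from RefSeq on GRCm38.p6, all on the minus strand, with these letters in capitals on either strand.
Egln3, chr12:54203875-54204124: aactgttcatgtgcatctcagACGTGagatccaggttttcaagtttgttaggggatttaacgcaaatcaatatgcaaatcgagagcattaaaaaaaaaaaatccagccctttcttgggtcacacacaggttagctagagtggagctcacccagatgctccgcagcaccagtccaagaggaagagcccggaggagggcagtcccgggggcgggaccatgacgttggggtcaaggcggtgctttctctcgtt
Bnip3, chr7:138909507-138909756: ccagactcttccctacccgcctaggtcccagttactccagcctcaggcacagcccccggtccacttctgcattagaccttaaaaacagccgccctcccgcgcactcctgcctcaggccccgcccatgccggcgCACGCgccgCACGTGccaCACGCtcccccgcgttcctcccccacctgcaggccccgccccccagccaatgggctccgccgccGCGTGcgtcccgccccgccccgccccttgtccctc
Higd1a, chr9:121857797-121858046: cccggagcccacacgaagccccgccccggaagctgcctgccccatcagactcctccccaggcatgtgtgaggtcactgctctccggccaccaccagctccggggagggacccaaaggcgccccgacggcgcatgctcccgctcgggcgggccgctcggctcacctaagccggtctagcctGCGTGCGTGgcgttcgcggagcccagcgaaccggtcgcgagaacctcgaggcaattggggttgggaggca

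Egln3 held 1 match in this window, an ACGTG, and no GCGTG. Bnip3 held 3 GCGTG matches and 1 CACGTG, which reads as ACGTG on both strands and is also the letters of an E-box, and Higd1a held 2 overlapping GCGTG matches. Promoter windows were found for 35 of the 37 genes. ACGTG on either strand stood in those of 19 genes (54.3%), against 18.5% of all 27025 genes with a window, and GCGTG in those of 25 (71.4%), against 30.9% of all genes. Either stood in those of 32 members (91.4%), against 41.5% of all genes. The list was chosen for glycolysis and the HIF pathway, so its higher share is not a result of these arrays. The 35 genes also had 49 windows, against 32851 for the 27025 genes, and so more windows per gene. A match describes the letters and is not a measured binding site.

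The other genes of oxygen sensing differed by less than 2-fold. Egln1, the main hydroxylase of HIF in most tissues, was at 8.76, 8.85 and 8.71 in WT and 8.74, 8.44 and 8.55 in KO, and the groups overlapped. Its log2 change was -0.20, with a 95% interval of -0.48 to 0.084. Egln2, which is not on the list, differed by 0.24 (adjusted p = 0.348 by limma), and its groups did not overlap. Vhl, the recognition subunit of the ligase that marks hydroxylated HIF for degradation, differed by -0.20 on its brightest probe set (95% interval -0.48 to 0.078). On its other one, with a mean of 4.98, it differed by 0.35 (95% interval 0.081 to 0.61, limma adjusted p = 0.163). The groups of Vhl overlapped on neither.

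The HIF subunits were above 0 in log2 difference on their brightest probe sets, short of a call. Epas1, the alpha subunit HIF-2α that is abundant in endothelium, was at 11.89, 11.86 and 11.34 in WT and 12.31, 12.22 and 11.94 in KO. Its log2 difference was 0.46 ± 0.18 (SE, limma adjusted p = 0.227), and its other probe set gave 0.45. Without WT3 it was 0.28, and against WT1 alone 0.27. All 10 endothelial markers measured were also higher in KO, with a median log2 change of 0.61. By limma 1 of them was called, and 5 were higher and 0 lower at an unadjusted p below 0.05. Over all genes 0.517% were called higher, and 6.17% were higher and 13% lower at that p. The mean level of the endothelial markers per array ran from 9.19 to 9.58 in WT and from 9.70 to 10.2 in KO. The part of these markers in the difference of Epas1 was not tested. Hif1a, which is not on the list, was at 12.41, 12.59 and 12.54 in WT and 12.80, 12.89 and 12.76 in KO on its brightest probe set, with every KO array above every WT array. The log2 difference was 0.30 ± 0.11 (SE, limma adjusted p = 0.188), and on its other 3 probe sets 0.17, 0.29 and 0.62. Arnt, the shared partner, differed by 0.14 on its brightest probe set. The other 4 gave 0.71, 0.42, 0.28 and -0.091, and the groups did not overlap on all but the last of them. For the 0.71 and 0.42 limma's unadjusted p was 0.00995 and 0.00395 (adjusted p = 0.133 and 0.0947), but both were under 2-fold.

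**Figure D2:**
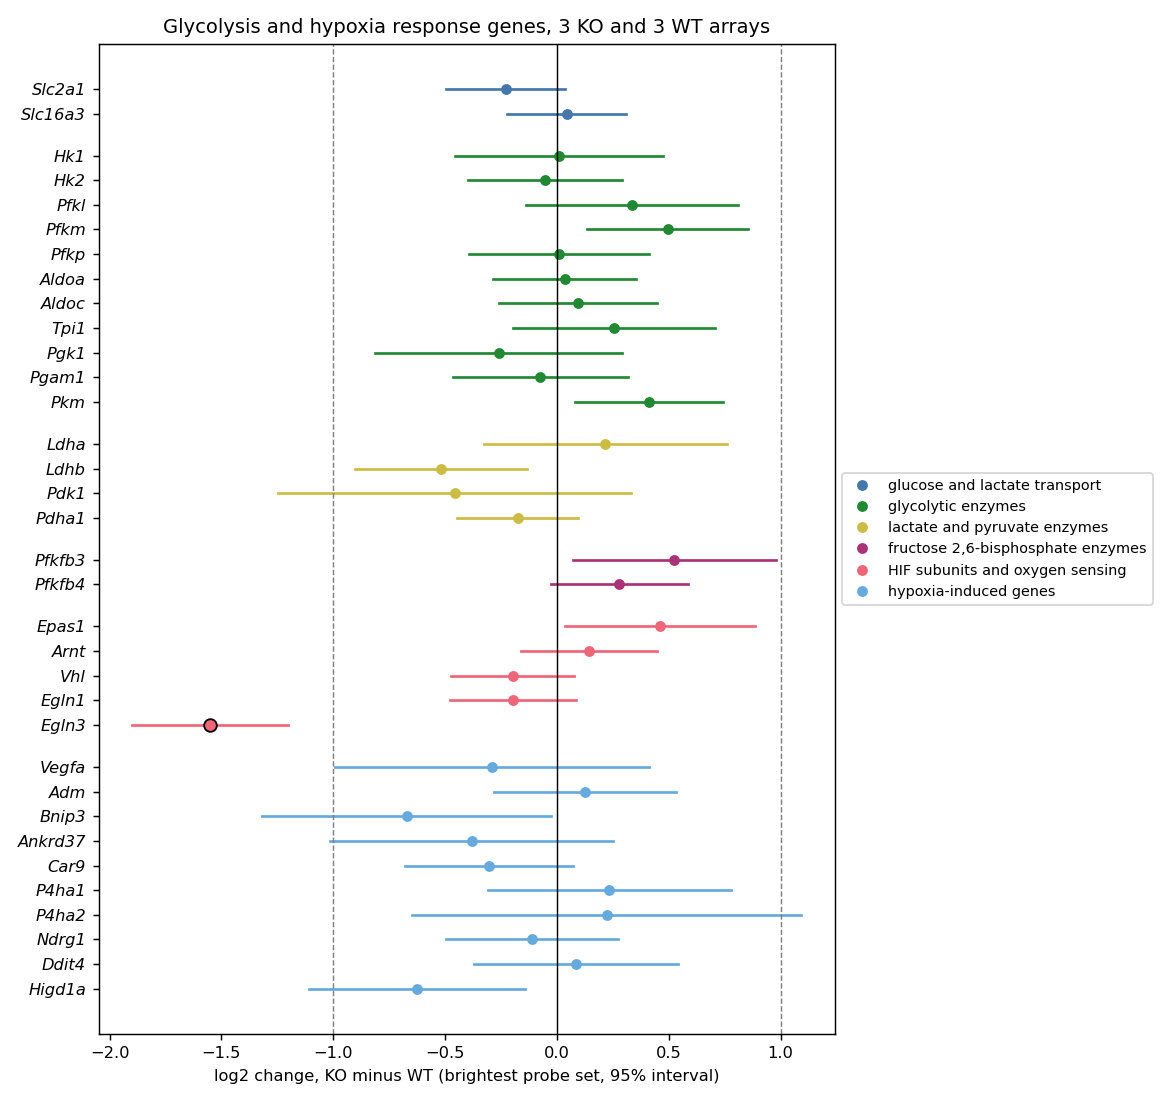
Log2 change, KO minus WT, of the brightest probe set of the 34 tested members, grouped by role; points are limma estimates from 3 arrays per group, lines 95% intervals, dashed lines a 2-fold change. Egln3 at -1.55 is the 1 member called (outlined), and the intervals of 28 members lie within 2-fold either way.

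Among the genes that HIF is known to induce, none of the 10 tested members was called by limma (at an unadjusted p below 0.05 there were 0 higher and 2 lower), and 4 were higher and 6 lower, with a median log2 change of -0.20. Over all genes 0.517% were called higher and 0.462% lower, and that p was reached by 6.17% on the higher side and 13% on the lower. Bnip3, a mitochondrial protein of mitophagy and cell death, was at 9.19, 9.81 and 10.39 in WT and 9.25, 9.06 and 9.07 in KO. WT1 was within the KO range, and the log2 difference of -0.67 ± 0.28 (SE, limma adjusted p = 0.244) rested on WT2 and WT3. It was 0.084 with the RNA quality covariate and -0.064 against WT1 alone, and it was -0.38 without WT3. Higd1a, a small protein of the mitochondrial inner membrane, was at 10.52, 10.90 and 11.34 in WT and 10.41, 10.30 and 10.17 in KO. Its groups did not overlap, at a log2 difference of -0.63 ± 0.21 (SE, limma adjusted p = 0.164), and WT1 was again the WT array nearest to KO. With the covariate it was at -0.13, without WT3 at -0.42 and against WT1 alone at -0.22. Its other 2 probe sets, both dimmer, gave -0.34 and -0.28.

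Vegfa, the main growth factor of blood vessels, was at 9.99, 10.20 and 9.38 in WT and 8.99, 9.73 and 9.98 in KO, with overlap and a change of -0.29 on the log2 scale (95% interval -0.99 to 0.41). Its other probe set went the other way, at 0.58. Car9, the carbonic anhydrase often used as a marker of hypoxia, and Ankrd37 were dim on every array, with means of 4.39 and 4.65, and their log2 changes were -0.30 and -0.38. Adm, the vasodilator peptide adrenomedullin, differed by 0.12 on its brightest probe set. On the other it was at 9.86, 9.71 and 9.83 in WT and 10.39, 10.27 and 10.36 in KO, an increase of 0.54 that had an unadjusted p of 0.00112 (limma adjusted p = 0.0675) but was under 2-fold. P4ha1 and P4ha2, the collagen prolyl hydroxylase subunits, differed by 0.24 and 0.22, and Ddit4, an inhibitor of mTORC1, by 0.085. With the RNA quality covariate the changes were larger for Adm on its brightest probe set, at 0.71, and for P4ha2, at 0.80. Against WT1 alone they were 0.51 and 0.81, and without WT1 -0.066 and -0.074. Ddit4 was at 12.35, 12.03 and 11.67 in WT and 12.23, 11.86 and 12.21 in KO, and the groups overlapped.

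Glucose entry and the enzymes of glycolysis gave no call by limma in either direction among 13 tested members. When only an unadjusted p below 0.05 is asked for, 2 were higher and 0 lower. Over all genes 0.517% were called higher and 0.462% lower, and that p was reached by 6.17% and 13%. Slc2a1, the glucose transporter GLUT1, was at 12.36, 12.35 and 12.27 in WT and 12.04, 12.25 and 12.003 in KO. Each KO array was below each WT array, by a mean of 0.23 (log2 difference -0.23 ± 0.11 SE, limma adjusted p = 0.324). Its 2 other probe sets gave -0.32 and 0.085. Slc16a3, the lactate exporter MCT4, was dim, at 3.82, 3.93 and 3.92 in WT and 4.05, 3.95 and 3.80 in KO. For hexokinase, which traps glucose in the cell, the brightest probe sets differed by 0.0088 for Hk1 and -0.053 for Hk2, the latter with a 95% interval of -0.40 to 0.29.

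Phosphofructokinase commits sugar to glycolysis. Its muscle-type gene Pfkm was at 8.17, 7.73 and 7.77 in WT and 8.32, 8.29 and 8.55 in KO, with no overlap and a log2 difference of 0.49 ± 0.15 (SE, limma adjusted p = 0.148). Pfkl and Pfkp, the liver and platelet types, differed by 0.34 and 0.0083. Pfkfb3, whose product makes the activator of phosphofructokinase, was at 11.33, 10.85 and 10.56 in WT and 11.44, 11.35 and 11.52 in KO. Its log2 difference was 0.53 ± 0.19 (SE, limma adjusted p = 0.204). The WT1 array lay just under the KO arrays, and with the RNA quality covariate the change was -0.024 for Pfkfb3 and 0.062 for Pfkm, and against WT1 alone 0.11 and 0.21. Pfkfb3 was at 0.35 without WT3, and its other probe set, with overlap, gave -0.074. Pfkfb4, of the same family, differed by 0.28.

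In the lower part of the pathway Pkm, pyruvate kinase, was at 10.84, 10.47 and 10.85 in WT and 11.13, 11.24 and 11.02 in KO, with no overlap and a log2 difference of 0.41 ± 0.14 (SE, limma adjusted p = 0.179), which was 0.14 with the covariate. Aldoa, Aldoc, Tpi1, Pgk1 and Pgam1 differed by -0.26 to 0.25, and each of their groups overlapped. Aldoa, among the brightest members, was at 12.24, 12.21 and 12.55 in WT and 12.41, 12.47 and 12.23 in KO (95% interval of the change -0.29 to 0.36). Gapdh, seen on its control probe sets, was at 13.07, 12.53 and 12.64 in WT and 13.09, 13.11 and 13.02 in KO at the 3' end, and at 12.12, 10.12 and 10.85 in WT and 12.69, 12.55 and 12.56 in KO at the 5' end. The difference between the groups was 0.33 at the 3' end, 0.88 in the middle and 1.57 at the 5' end of the same transcript. Probe sets shared by Gapdh and its pseudogenes, which fall outside the rule for members, differed by 0.47, 0.094 and 0.14 (limma adjusted p = 0.244, 0.717 and 0.686).

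The fate of pyruvate is set by lactate dehydrogenase and pyruvate dehydrogenase. Ldhb, the subunit typical of heart, was lower in KO on each of its 4 probe sets, by 0.43 to 0.63 on the log2 scale, with no overlap on any of them. On the brightest it was at 9.62, 9.68 and 10.14 in WT and 9.44, 9.17 and 9.28 in KO (log2 difference -0.52 ± 0.16 SE, limma adjusted p = 0.153), which is short of both limits of a call. Against WT1 alone it was at -0.33. On the dimmer 1416183_a_at and 1448237_x_at limma's unadjusted p was 0.00936 and 0.00742 (adjusted p = 0.129 and 0.118), but both were under 2-fold. Ldha, the subunit typical of muscle and a HIF target, was at 11.51, 10.94 and 11.92 in WT and 11.76, 11.66 and 11.60 in KO, a change of 0.22 with overlap. Pdk1, the kinase that switches pyruvate dehydrogenase off, differed by -0.46 with KO6 far below the other KO arrays, at 7.07 against 8.19 in KO5 and 8.40 in KO7. Without KO6 the difference was -0.046 and without KO7 -0.72, and the 3 other Pdk1 probe sets gave -0.47, 0.17 and 0.19. Pdha1, a subunit of the dehydrogenase, differed by -0.18 and -0.17 on its 2 probe sets.

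Across the 34 members 18 were higher and 16 lower in KO, with a median log2 difference of 0.0085 against -0.065 over all genes. A change of less than 0.3 in size was seen for 22 of them. The groups did not overlap for 9 members, or 26.5%, against 23.3% of all genes. On brightest probe sets 4 members were higher and 4 lower at an unadjusted limma p under 0.05, against 6.17% and 13% of all genes. There an adjusted p under 0.05 was reached by Egln3 alone among the members, against 0.137% of all genes. The dimmer Hk1 probe set described below reached it too (limma adjusted p = 0.0459). The 95% interval lay within 2-fold either way for 28 members. The 6 exceptions were Egln3, Bnip3, Higd1a, Pdk1, Ankrd37 and P4ha2.

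Probe sets of a gene did not always move alike. Of the 41 further probe sets of the 22 members that had several, 4 were called higher and 1, that of Egln3, lower. Of all such further probe sets on the array 3.19% were called higher and 0.179% lower. Those called higher belonged to Hk1, Pfkp and Ndrg1, genes whose brightest probe sets differed by 0.0088, 0.0083 and -0.11. The dimmer Hk1 probe set (1420901_a_at) was at 5.58, 4.89 and 5.19 in WT and 6.56, 6.80 and 6.59 in KO, a log2 difference of 1.43 ± 0.18 (SE, limma adjusted p = 0.0459). Its mean of 5.94 was low, and the fit that asked for a mean log2 value of at least 6 left it out. In that fit 3 further probe sets were called higher. The dimmer Pfkp probe set (1437759_at) was at 5.86, 5.16 and 5.68 in WT and 6.80, 6.49 and 6.46 in KO, a change of 1.01.

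Ndrg1, a stress- and hypoxia-induced gene of epithelial differentiation, had 5 probe sets with changes of -0.11, 0.34, 0.54, 1.31 and 1.28 from the brightest to the dimmest. On 1423413_at it was at 9.28, 8.39 and 8.43 in WT and 10.16, 10.26 and 9.62 in KO, with WT1 the WT array nearest to KO. The 2 called Ndrg1 probe sets were at 0.47 and 0.45 with the RNA quality covariate and at 0.73 and 0.74 against WT1 alone, and the Pfkp one at 0.46 and 0.72. None of these passed the limits of a call, and the Pfkp one was also under 2-fold without WT2, at 0.81, and without KO5, at 0.90. The Hk1 one was at 0.84 with the covariate, under 2-fold, and at 1.07 against WT1 alone, where it was called. Where these probe sets lie along their transcripts was not analysed here.

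**Figure D3:**
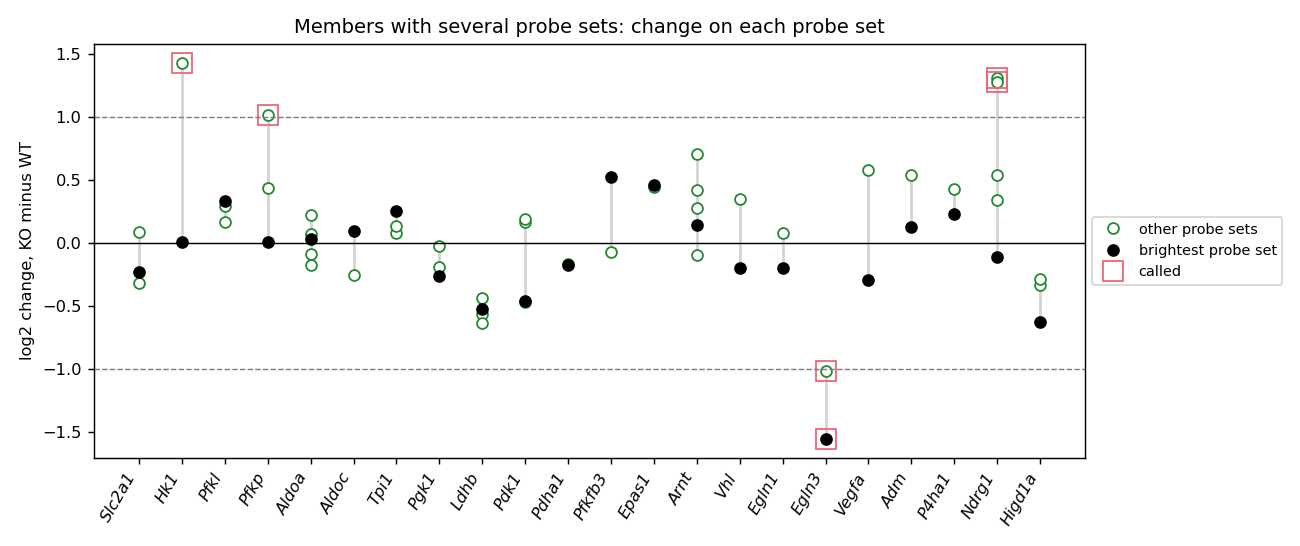
Log2 change, KO minus WT, on every tested probe set of the 22 members with more than 1; filled points are the brightest probe set of a gene, open points the others, squares those called, dashed lines a 2-fold change. Both Egln3 probe sets lie at or below -1.02, while Hk1, Pfkp and Ndrg1 are called on dimmer probe sets only.

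Beyond the members, 5 lists of related genes gave few calls. Over all genes limma called 0.517% higher and 0.462% lower on the brightest probe set. An unadjusted limma p below 0.05 was reached by 6.17% on the higher side and 13% on the lower. Of probe sets other than the brightest, 3.19% were called higher. Of 19 other glycolytic genes, among them further hexokinases, enolases and glucose transporters, limma called 0 (at an unadjusted p below 0.05, 1 was higher and 4 were lower), and the median log2 difference was -0.11. Of 11 genes of pyruvate dehydrogenase, its regulators and pyruvate import, limma called 0 (0 higher and 3 lower at that p), with a median of 0.021. Of 15 genes of the pentose phosphate branch and gluconeogenesis, limma called 0 (1 higher and 0 lower at that p), with a median of 0.086. Of 16 other HIF pathway components limma called 0 on the brightest probe set (1 higher and 3 lower at that p), with a median of 0.0017. On dimmer ones it called Crebbp, a coactivator, at 1.08 and 2.01, Hsp90aa1, a chaperone of HIF, at 1.79 and Os9 at 1.43. With the covariate these 4 probe sets were at 0.68, 0.53, 0.91 and 0.42 and none was called, and against WT1 alone at 0.77, 0.88, 1.16 and 0.78, where Hsp90aa1 was still called. Both Crebbp probe sets were also not called without KO5, at 1.01 and 2.04, or without KO7, at 0.93 and 1.85, nor was the first without WT3, at 0.90, or the second without WT2, at 1.95.

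Of 37 other hypoxia-induced genes, limma called 2 higher and 0 lower on the brightest probe set, against 0.517% and 0.462% of all genes. At an unadjusted limma p below 0.05 there were 6 higher and 5 lower, against 6.17% and 13% of all genes. The median log2 difference was -0.012. Hmox1, heme oxygenase, was at 12.02, 10.77 and 9.94 in WT and 12.57, 12.99 and 12.50 in KO, a log2 difference of 1.78 ± 0.47 (SE, limma adjusted p = 0.111). Its WT arrays spanned more than 2 log2 units, with WT1 nearest to KO, and it was not called without WT2, at 1.71, or without KO5, KO6 or KO7, at 1.84, 1.62 and 1.87, nor with the covariate, at 0.36, or against WT1 alone, at 0.66. Flt1, a receptor for Vegfa on endothelial cells, was at 8.56, 8.52 and 7.98 in WT and 9.46, 9.51 and 9.29 in KO, a log2 difference of 1.07 ± 0.17 (SE, limma adjusted p = 0.0555). The endothelial markers, higher in KO as given above, moved with it, and their part in it was not tested. It was at 0.89 without WT3, 0.91 with the covariate and 0.87 against WT1 alone, under 2-fold in each. Plod2 and Lox, collagen-modifying enzymes, were called higher on dimmer probe sets, at 1.39 and 1.19. With the covariate they were at 1.27 and 1.001, neither of them called. Lox was also not called in the fit with a replicate block, without WT1, WT2, KO5 or KO6, or against WT1 alone, at values from 0.96 to 1.20, nor Plod2 against WT1 alone, at 1.31. On their dimmer probe sets Plod2 was at 7.96, 7.85 and 6.89 and Lox at 7.84, 7.59 and 6.73 in KO5, KO6 and KO7, where the fibroblast markers averaged 11.03, 11.10 and 10.26, and the part of these markers in both calls was not tested.

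The organoids carried epithelial markers on all arrays. The luminal markers averaged 12.1 to 12.4 in WT and 12.3 to 12.5 in KO, and the basal and myoepithelial markers 9.79 to 10.1 and 9.81 to 10.1. Skeletal muscle and erythrocyte markers were dim throughout, at averages of 4.81 to 5.32. All 9 lymphocyte and all 9 macrophage and dendritic cell markers were lower in KO on average, with 0 called by limma (0 at an unadjusted p below 0.05). The lymphocyte average was 8.31, 7.36 and 5.94 in WT and 5.67, 7.06 and 5.80 in KO, and the groups overlapped. Fibroblast markers averaged 10.31, 10.31 and 10.53 in WT and 11.03, 11.10 and 10.26 in KO, with 8 of 10 higher. By limma 1 of them was called higher, and 4 were higher and 0 lower at an unadjusted p below 0.05. Over all genes 0.517% were called higher and 0.462% lower, and that p was reached by 6.17% and 13%. Adipocyte markers averaged 7.50 to 8.44 in WT and 7.90 to 8.08 in KO. The part of all these markers in the differences of the members was not tested.

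**Figure D4:**
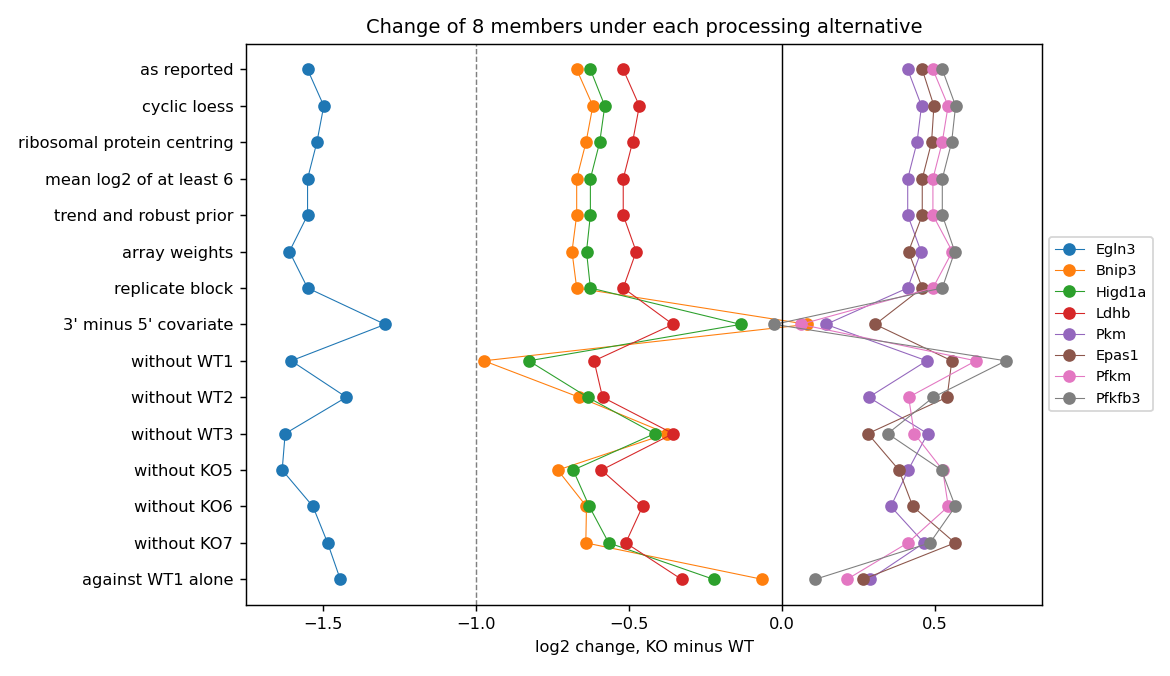
Log2 change, KO minus WT, of the 8 members with an unadjusted p under 0.05, as reported and in 14 alternative fits; each line is a gene and the dashed line a 2-fold fall. Egln3 stays between -1.63 and -1.30, while Bnip3 and Pfkfb3 reach 0.084 and -0.024 with the 3' minus 5' covariate.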

How the data were processed

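RNA from 6 mice, 3 WT and 3 KO, had been hybridised to Affymetrix mouse arrays, 1 per mouse. The deposited values are log2 expression from RMA, which removes background, quantile normalizes the arrays and sums up the probes of a set, and were used as they stand. The RMA version is not given in the sources used here. The methods of the study name simpleaffy and limma. Of 45101 probe sets, 64 Affymetrix controls were kept out of all tests, and the 45037 others split into 34945 with a single symbol, 932 with more and 9160 without any. Levels of different genes are not compared.

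The KO arrays were set against the WT arrays with limma 3.58.1 in R 4.3.3 (lmFit, then eBayes, no covariate), a step tested on simulated data. Benjamini-Hochberg adjustment ran over the 45037 probe sets. Intervals are limma's, at 95%. For single measures the exact permutation test was used. Members, lists and tests were chosen with earlier results of these data known. Array by array values are given for members called or with an unadjusted p under 0.05, members called on another probe set, the brightest and dimmest members and Hif1a, and further ones were added after the values were seen. Promoter windows came from RefSeq (GRCm38.p6).

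The alternatives were cyclic loess, centring on 46 ribosomal protein genes, a mean log2 value of at least 6, a trended robust prior, array weights, a replicate block, the covariate of RNA quality, each array left out and, chosen after seeing the data, KO against WT1 alone, where WT1 is taken to vary as the KO arrays do. Plots were made with matplotlib 3.10.9 (Python 3.11.15).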

Additional observations from a re-analysis of the deposited data

How the results depend on the processing

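The alternatives left Egln3 called and no other member called on its brightest probe set, so that the counts of 0 members higher and 1 lower stood in each of the 14 fits. Of 473 values of single members, 0 crossed the limits of a call, and 2 turned sign with the 3' minus 5' covariate, Bnip3 at 0.084 and Pfkfb3 at -0.024 (a change of sign was counted where the reported unadjusted p was under 0.05). Where a call on any of a gene's probe sets sufficed, 3 members were called higher. The share of all genes under that rule was not counted. Over the array, further probe sets were called higher more often than brightest ones (3.19% against 0.517%). The members' median log2 change was 0.0085 as reported, 0.080 where probe sets of a gene were averaged and -0.054 to 0.054 with single arrays left out. Over all probe sets 894 were called as reported, 316 with the covariate and 566 to 1634 with single arrays left out, the ends being without WT2 and without WT1. Of the further probe sets of members, 4 were called higher as reported, 0 with the covariate, 1 against WT1 alone and 3 to 4 with single arrays left out, and 1 was called lower as reported, with 0 after cyclic loess normalization, after ribosomal protein centring or with the covariate and 0 to 1 with single arrays left out. Of the other pathway genes, 2 were called higher as reported, 0 with the covariate or against WT1 alone and 1 to 2 with single arrays left out. The cause of these shifts was not tested.

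Whether the replicate numbers of the titles pair the arrays could not be settled. Deviations from the group means of equal numbers correlated at -0.16, 0.16 and 0.10 over probe sets. Unequal numbers gave -0.013 to 0.15 for WT1, -0.12 to -0.060 for WT2 and -0.26 to 0.20 for WT3. With the replicate number as a block, Egln3 stayed at -1.55 (adjusted p = 0.0739 by limma) and the members' calls were 0 higher and 1 lower. Signal near background limits Slc16a3, Car9 and Ankrd37, the 3 members whose brightest probe set had a mean log2 value under 6. It also limits the dimmer Hk1 probe set that was called.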
